A study of Mus musculus with 6 samples.

Results

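The genes described here encode the machinery that releases transmitter from synaptic vesicles. They are 36 genes chosen by name, of 22180 genes measured, and each was read from its probe set with a single gene symbol and the highest mean over the arrays. The series profiled fibroblasts of mouse embryos (MEF), the same cell type during induction into parvalbumin (PV) neurons, called iPV cells, and a sample labelled endogenous PV neurons, to follow expression through the stages of induction. Total RNA was hybridised to 6 Affymetrix arrays, 1 array per group. Without replicates no test was possible and none of the differences below could be checked against the spread between samples. The groups were MEF, iPV cells at 3, 7 and 14 days post infection (dpi), iPV cells at 14 dpi sorted for green fluorescent protein (GFP), and the endogenous-labelled sample. Every sample was of the PV-GFP transgenic genotype in strain C57BL/6, and the labels give embryos of 13.5 days as the stage of every sample, that labelled endogenous PV included. All 6 samples carry the same protocol text, fibroblast culture followed by adenovirus infection, MEF included. The labels do not name the factors that the virus carried or the number of cultures or animals behind an array. In the sorted sample the GFP gate and the passage through the sorter cannot be told apart, because no sorted GFP-negative cells were arrayed among these 6 samples.

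At a chemical synapse, vesicles filled with transmitter dock at the active zone and fuse when calcium enters. Fusion is driven by SNARE proteins, with synaptobrevin (Vamp) on the vesicle and syntaxin and SNAP-25 on the plasma membrane, and synaptotagmins are the calcium sensors. Parvalbumin interneurons are known for fast, tightly timed release, and their terminals use synaptotagmin-2, encoded by Syt2, as the fast sensor.

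Values are log2 intensities as the authors deposited them. A floor was set at 5.01, the median over the probe sets that are not controls, lower values were set to it, and a difference from a value under the floor is a lower bound, written "at least". A gene was measured in a comparison where it lay above the floor on at least 1 of the 2 arrays, and called where it differed 2-fold, a log2 difference of 1. Of the 36 genes, 27 lay above the floor on at least 1 array, 18 on all 6 arrays, and 9 on none. As a scale for error, the technical spread is the standard deviation, over genes with several probe sets, of how far 2 probe sets of a gene disagree on the log2 difference, divided by the square root of 2 to give the error of 1 probe set. It was 0.32 for day 3 against MEF, 0.38 for day 7, 0.43 for day 14, 0.50 for sorted cells and 0.42 for the endogenous-labelled array. It was 0.33 for sorted against unsorted day 14 cells and 0.32 for sorted cells against the endogenous-labelled array. It leaves out the variation between cultures. The comparisons with MEF share the MEF array, so a low or high value there enters all 5 of them.

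The labelled cell types were checked against marker lists, and fibroblast genes were bright on every array. Of 15 fibroblast markers analysed, 14 lay above the floor in sorted cells and 15 on each other array, with list medians between 10.24 and 11.44 and summed linear intensities between 34086 and 45838. The endogenous-labelled array had the highest of both. Of 8 GABAergic markers analysed, 3 or 4 lay above the floor on each array, and their summed intensity ran from 294 in MEF to 452 in sorted cells. Their list median was instead lowest in sorted cells, at 4.58 against 5.06 in MEF and 4.94 to 5.07 on the other arrays. The markers that define transmitter identity were low, with Gad2 under the floor on all 6 arrays, Gad1 at most 5.19 and Slc32a1 at most 5.21. Abat, which breaks GABA down, was above the floor on all 6, from 5.79 in MEF to 7.93 in sorted cells, and so was Lhx6, from 5.48 in sorted cells to 6.16 at day 14. Of 9 PV interneuron markers, 3 were above the floor in MEF, 4 on the endogenous-labelled array and 5 on each of the others, and Pvalb itself lay between 5.23 in MEF and 6.29 in sorted cells.

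Several other marker lists differed along with the sorted array or with MEF. Pan-neuronal markers had 13 of 15 above the floor in sorted cells against 9 to 12 elsewhere, with a list median of 6.50 against 5.64 to 5.77, and a summed intensity of 2285 against 1410 to 1850. Tubb3, Nefl, Nefm, Nefh, Elavl3, Mapt, Ina and Uchl1 were highest in sorted cells. Gap43 was instead lowest there, at 5.99 against 6.97 in MEF, and Stmn2 read 7.14 against 7.31 in MEF. Map2 read 7.19 against 7.20 in MEF, and Ncam1, the brightest of the list, 9.99 on both. Of 6 glutamatergic markers, 1 or 2 were above the floor on each array, with a summed intensity of 257 in sorted cells against 129 to 163 elsewhere. Of these, Slc17a7 was above the floor in sorted cells alone, at 6.06 against 4.43 in MEF, and Camk2a went from 5.32 in MEF to 6.98 in sorted cells. Emx1 went the other way, from 5.32 in MEF to 4.77, under the floor, in sorted cells. Slc17a6, Neurod6 and Tbr1 were under the floor on every array. The list median was 4.12 in MEF and 4.24 in sorted cells, and 4.10 to 4.46 on the other arrays. Of 7 neuroendocrine granule markers, 5 were above the floor in sorted cells and at day 7, 2 in MEF and 3 or 4 on the other arrays, with a list median of 6.09 in sorted cells, 3.83 in MEF and 4.52 to 5.62 elsewhere. Their summed intensity was 1149 in sorted cells and 1006 in MEF, against 417 to 825 on the other arrays. Most of the sum in MEF came from Cpe, at 9.79 there and 9.61 in sorted cells. Chga, Chgb, Scg3, Scg5 and Pcsk1 were under the floor in MEF. Dividing-cell markers, with 6 or 7 of 7 above the floor on each array, had a summed intensity of 1956 in MEF and 1871 at day 7, against 621 at day 3, 637 at day 14, 745 after sorting and 888 on the endogenous-labelled array. Macrophage markers had 5 of 11 above the floor and a summed intensity of 467 in sorted cells, against 9 and 1960 in MEF. The other arrays had 8 and 469 at day 3, 10 and 842 at day 7, 10 and 816 at day 14, and 10 and 2475 for the endogenous label. The part of these markers in the results below was not tested. In such bulk RNA, fewer cells of a type and less RNA per cell cannot be told apart.

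Release machinery genes were higher in sorted cells than in MEF more often than lower, and Snap25 stood furthest above MEF. In sorted cells 24 of the 36 genes were measured, and 4 of them, Snap25, Vamp2, Syt1 and Rab3a, were at least 2-fold higher, with 0 lower. Over all 13466 measured genes, 6.04% were 2-fold higher and 2.7% lower. At 1.5-fold, 11 of the 24 genes were higher and 0 lower, against 16.4% higher and 7.71% lower over all genes. The median log2 difference of the 24 genes was 0.44, against 0.085 over all measured genes, and 21 of the 24 lay above 0 against 57.7% of all genes. Of these 21, Snap25, Syt9, Syn2 and Sv2b were under the floor in MEF and were measured through the sorted array alone. Such genes could only lie above 0, so their direction was fixed by the filter. Another 3 genes fell just short of 2-fold in sorted cells, Doc2b with a difference of 0.998, Syt7 with 0.996 and Vamp1 with 0.97. The number called therefore depends on differences smaller than the technical spread of 0.50. With arrays centred on 12 housekeeping genes, Vamp2 and Syt1 fell short as well, at 0.92 and 0.75, which left 2 genes called and a list median of 0.20.

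On the unsorted iPV arrays and the endogenous-labelled array, 1 or 2 of the genes were called higher than MEF and 0 lower. At day 3 it was 1 of 23 measured, Cplx2, against 2.37% of all genes. At day 7 they were Snap25 and Vamp2 of 24 measured, against 2.79%. At day 14 they were Snap25 and Rims1 of 25 measured, against 3.47%, and on the endogenous-labelled array the same Snap25 and Rims1 of 23 measured, against 3.53%. At 1.5-fold, 4 members were higher at day 3 against 8.34% of all genes, 4 at day 7 against 8.38%, 6 at day 14 against 11.7% and 3 on the endogenous-labelled array against 10.5%. There 0 members were lower at 1.5-fold, against 7.84%, 6.5%, 6.97% and 6.68% of all genes. The shares of all genes called lower at 2-fold were 2.7%, 1.39%, 2.08% and 1.61% in the same order. The medians of the measured members were 0.056 at day 3, 0.20 at day 7, 0.12 at day 14 and 0.21 on the endogenous-labelled array, where all measured genes had 0.021, 0.024, 0.066 and 0.04. Here too, genes under the floor in MEF could only lie above 0. They were Snap25 on each of these arrays, Syt9 at days 3, 7 and 14, Sv2a at days 7 and 14, and Syngr1 at day 14. Syn3 was another at days 3 and 7, Syn2 at day 14, and both on the endogenous-labelled array. The day 3 median was the bound of Syn3 and the day 14 median that of Syn2. Housekeeping centring moved the median of all genes by -0.17 to -0.24 in the 5 comparisons with MEF and turned 3 of these list medians negative, to -0.13 at day 3, -0.044 at day 7 and -0.046 on the endogenous-labelled array. Relative to the median of all genes after that centring, the list lay higher by 0.014, 0.17 and 0.12 there, by 0.22 at day 14 and by 0.34 in sorted cells. That centring also turned the split over all genes in sorted cells against MEF from 814 higher and 364 lower to 484 higher and 670 lower, and it left 0 members lower in every comparison.

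**Figure D1:**
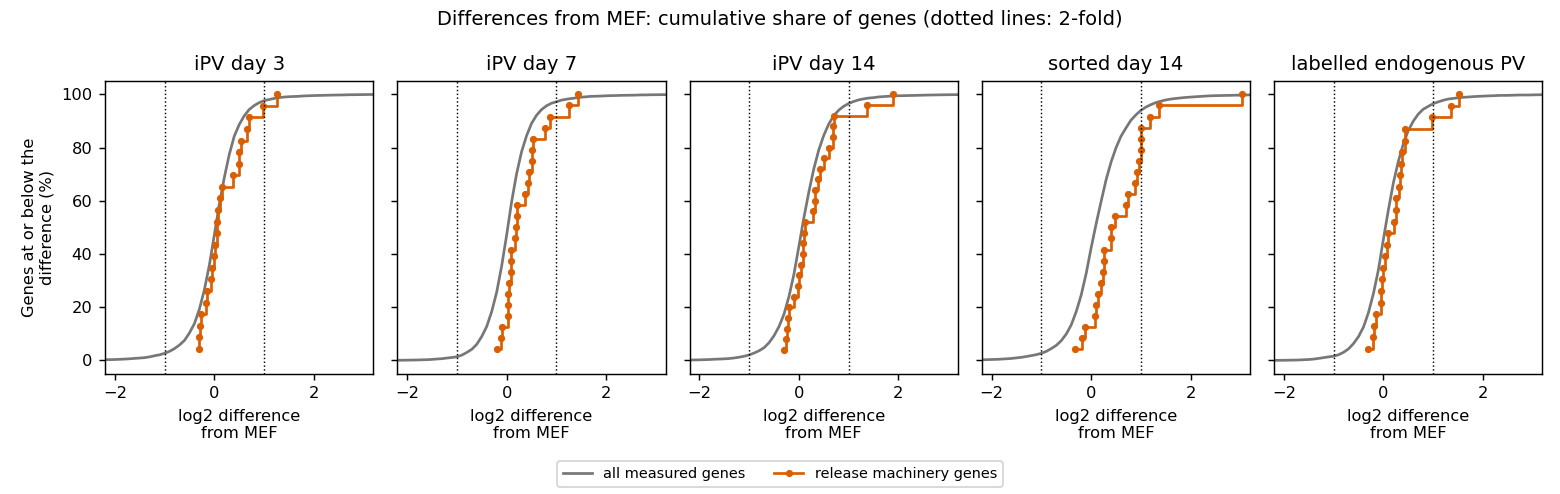
Cumulative share of genes (y axis, percent) at or below each log2 difference from MEF (x axis) for the 5 other arrays, with all measured genes in grey and the measured release machinery genes in orange, 1 orange point per gene, and dotted lines at 2-fold. In sorted cells the orange curve lies to the right of the grey one, with a median of 0.44 against 0.085, and Snap25 is the point furthest right at 3.04.

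Sorted cells were also compared with unsorted cells of the same day and with the endogenous-labelled array. Against unsorted day 14 cells, 3 of 26 measured genes were called higher, Snap25, Syt7 and Rab3a, and 0 lower, where 2.12% of all genes were higher and 1.02% lower. At 1.5-fold these were 7 higher and 2 lower, against 8.3% and 4.97%. Against the endogenous-labelled array, 4 of 25 were called higher, Snap25, Syt1, Syt7 and Rab3a, and 0 lower, where 2.28% were higher and 1.91% lower. At 1.5-fold these were 7 higher and 1 lower, against 8.14% and 4.88%. Both comparisons use the sorted array, and their list medians were 0.16 and 0.21, with 0.021 and 0.051 over all measured genes. Quantile normalization brought Rab3a to 0.98 and 0.95 in these comparisons, just under 2-fold. Of the 27 genes above the floor on any array, 11 had their highest value in sorted cells and 0 in MEF, and 12 had their lowest in MEF. These places, and those of all genes, were read before values were set to the floor. Among the genes lowest in MEF, Snap25, Syt9, Syn3 and Sv2b were under the floor there. Sv2b was above the floor in sorted cells alone, so its highest array was fixed by the filter. Of 14295 genes above the floor on any array, 24.7% were highest in sorted cells, 16.7% highest in MEF and 24.8% lowest in MEF. After the floor, the values spanned 2-fold or more over the 6 arrays for 8 of the 27 genes, against 17.9% of all genes. The median span of the 27 was 0.58, against 0.60 over all genes.

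**Figure D2:**
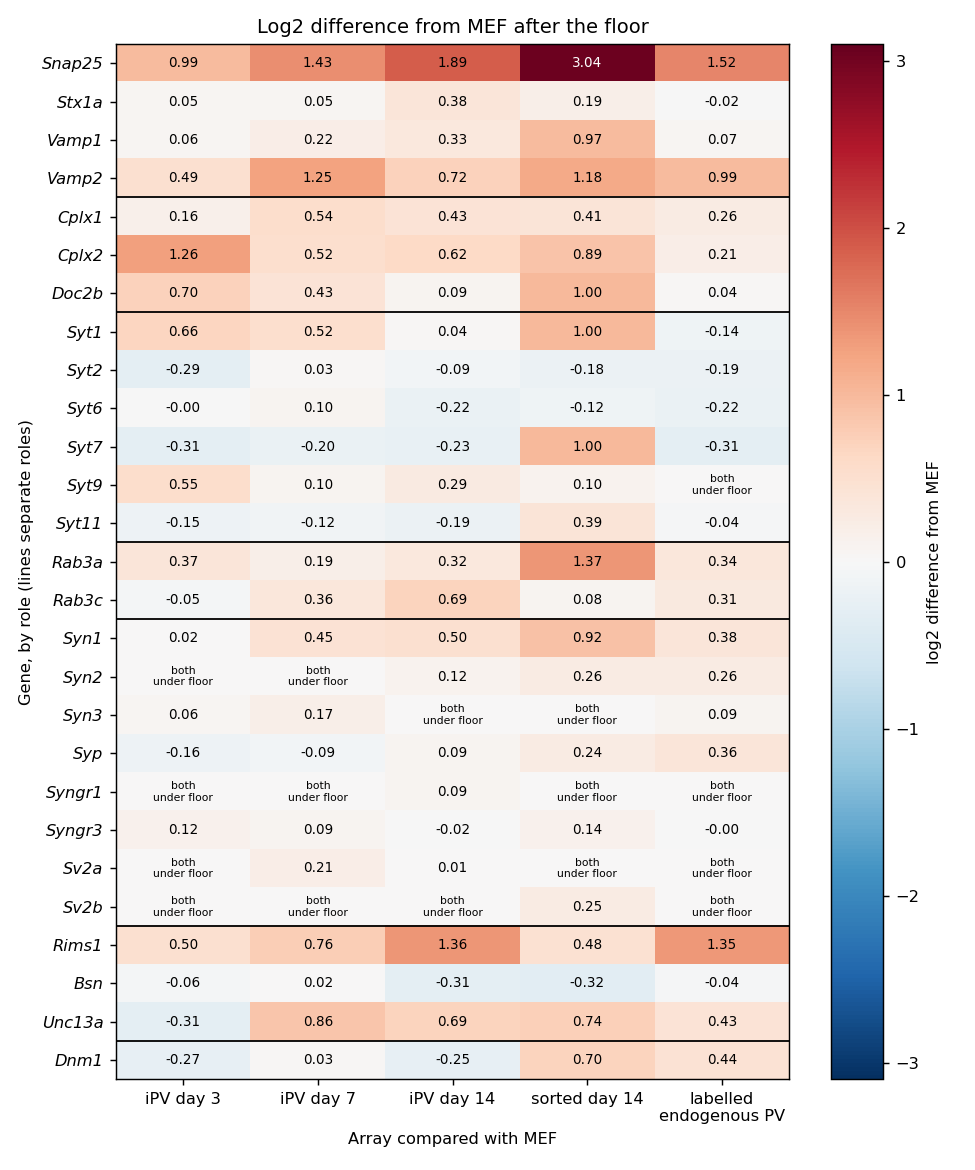
Log2 difference from MEF after the floor for the 27 release machinery genes above the floor on any array (rows, by role) on the 5 other arrays (columns), with the value printed in each cell and 1 array per group. Snap25 is the strongest row, from 0.99 at day 3 to 3.04 in sorted cells, and of the vesicle membrane genes Syn1 alone passes 0.50, in sorted cells.

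Proximal promoters were read to show which sequence elements lie around the starts of the members. The RefSeq promoter table (build GRCm38.p6), with 250 bases before and 50 after each annotated start, held 27 of the 36 genes. Of the 8 genes that spanned 2-fold, it held 5, and Snap25, Vamp2 and Syt7 were not searched. Counts are of genes with a match at any listed start, beside the share of all 27025 genes counted the same way and of all 32851 promoters. Both strands were searched for 4 motifs that do not overlap one another in the stretches printed here. The cAMP response element TGACGTCA was in 1 of the 27 genes, Syn1, against 2.03% of genes and 1.79% of promoters. The left half-site TTCAGCACC of RE1, the element that the repressor REST binds at many neuronal genes, was in 2, Syn1 and Unc13a, against 0.433% of genes and 0.371% of promoters. Its right half-site GGACAGCG was in 2, Syt6 and Unc13a, against 1.48% of genes and 1.26% of promoters. Both half-sites of Unc13a lie after its start, with first bases at +7 and +23. The E-box CAGCTG, a hexamer that proneural basic helix-loop-helix factors bind, was in 11 of the 27, among them Rab3a, Syt1 and Cplx2, against 18.3% of genes and 16.3% of promoters. In Bsn it lies after the start, at +34, and in the other 10 before it. It was in 3 of the 5 listed genes whose values spanned 2-fold and in 8 of the 22 others. A match is a description of letters, not of a bound site. Printed here are the 250 bases upstream of the start for Syn1, which holds an RE1 half-site and a cAMP response element, and for Rab3a, Syt1 and Cplx2, the members that spanned 2-fold and hold an E-box, with the motifs in capitals. They lie at chrX:20920919-20921168 (minus strand), chr8:70754852-70755101 (plus strand), chr10:109009112-109009361 (minus strand) and chr13:54302306-54302555 (plus strand), and for Rab3a and Syt1 another annotated start is listed, whose window holds none of the 4 motifs.
Syn1: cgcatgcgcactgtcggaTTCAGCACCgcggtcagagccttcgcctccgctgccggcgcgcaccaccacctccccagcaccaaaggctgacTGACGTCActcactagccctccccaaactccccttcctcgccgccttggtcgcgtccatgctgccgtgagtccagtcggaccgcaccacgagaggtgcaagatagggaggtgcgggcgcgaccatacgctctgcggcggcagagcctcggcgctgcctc
Rab3a: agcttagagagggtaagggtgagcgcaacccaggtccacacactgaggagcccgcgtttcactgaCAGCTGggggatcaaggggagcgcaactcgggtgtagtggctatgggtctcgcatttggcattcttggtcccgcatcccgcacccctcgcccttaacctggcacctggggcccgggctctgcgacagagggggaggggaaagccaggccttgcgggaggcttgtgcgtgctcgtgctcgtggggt
Syt1: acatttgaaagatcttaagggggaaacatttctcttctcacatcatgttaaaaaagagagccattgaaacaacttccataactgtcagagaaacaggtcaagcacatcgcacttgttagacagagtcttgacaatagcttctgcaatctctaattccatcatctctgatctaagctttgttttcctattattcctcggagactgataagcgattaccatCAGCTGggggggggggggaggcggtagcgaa
Cplx2: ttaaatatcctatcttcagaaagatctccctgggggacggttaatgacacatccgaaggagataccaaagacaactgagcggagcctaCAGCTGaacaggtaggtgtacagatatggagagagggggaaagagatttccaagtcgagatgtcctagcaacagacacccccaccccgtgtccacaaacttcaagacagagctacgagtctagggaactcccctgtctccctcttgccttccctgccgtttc

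Among the SNARE genes, Snap25 was higher on every other array than in MEF, Vamp2 was higher by less, and Stx1a stayed within 0.38 of MEF. Snap25 (probe set 17376822), the plasma membrane SNARE cut by botulinum toxin A, read 4.44 in MEF, then 6.00, 6.44 and 6.90 at 3, 7 and 14 dpi, 8.05 after sorting and 6.53 on the endogenous-labelled array. It lay under the floor in MEF alone, was higher at each later day of the unsorted cells, and was highest after sorting. Against MEF it was at least 1.98-fold higher at day 3, 2.70-fold at day 7, 3.70-fold at day 14, 8.24-fold in sorted cells and 2.87-fold on the endogenous-labelled array. These folds are bounds set by the floor. Without a floor the log2 difference in sorted cells was 3.62, and with a floor at percentile 75 of all values (6.58) it was at least 1.47 in sorted cells and 0.31 at day 14. Measured on both arrays, Snap25 was higher by 1.15 in sorted than in unsorted day 14 cells, a difference that 161 of 11810 genes reached. It was higher by 1.52 in sorted cells than on the endogenous-labelled array, which 69 of 11842 genes reached, and both differences exceed 3 times the technical spread of those pairs. The steps between unsorted days were smaller, 0.44 from day 3 to 7 and 0.46 from day 7 to 14. No technical spread was computed for those pairs of days.

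Vamp2 (probe set 17251518), the main vesicle SNARE of forebrain synapses, read 6.33 in MEF, then 6.82, 7.58 and 7.04 at 3, 7 and 14 dpi, 7.51 after sorting and 7.31 on the endogenous-labelled array. Day 7, sorted cells and the endogenous-labelled array lay close together at the top, and MEF was lowest. It was 2.38-fold higher than MEF at day 7 and 2.26-fold in sorted cells, and 1.98-fold on the endogenous-labelled array, where it was not called. Housekeeping centring brought the day 7 difference to 0.99, under 2-fold, as it did in sorted cells, and the floor at percentile 75 brought the day 7 and sorted differences to 0.996 and 0.92. Vamp1, the paralogue that is prominent in fast spinal and brainstem synapses, read 5.18 in MEF, then 5.25, 5.40 and 5.51 at 3, 7 and 14 dpi, 6.16 after sorting and 5.25 on the endogenous-labelled array. The sorted array stood 0.65 above the next highest, and the other 5 arrays were within 0.33 of one another. After housekeeping centring Vamp1 was below MEF at days 3 and 7 and on the endogenous-labelled array, by differences of -0.11, -0.050 and -0.16. Stx1a, a syntaxin of the presynaptic membrane, read 6.13 in MEF, then 6.18, 6.18 and 6.51 at 3, 7 and 14 dpi, 6.32 after sorting and 6.11 on the endogenous-labelled array. Its whole span of 0.41 was smaller than the technical spread of sorted cells against MEF, and its difference of 0.19 in sorted cells turned to -0.063 after housekeeping centring.

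**Figure D3:**
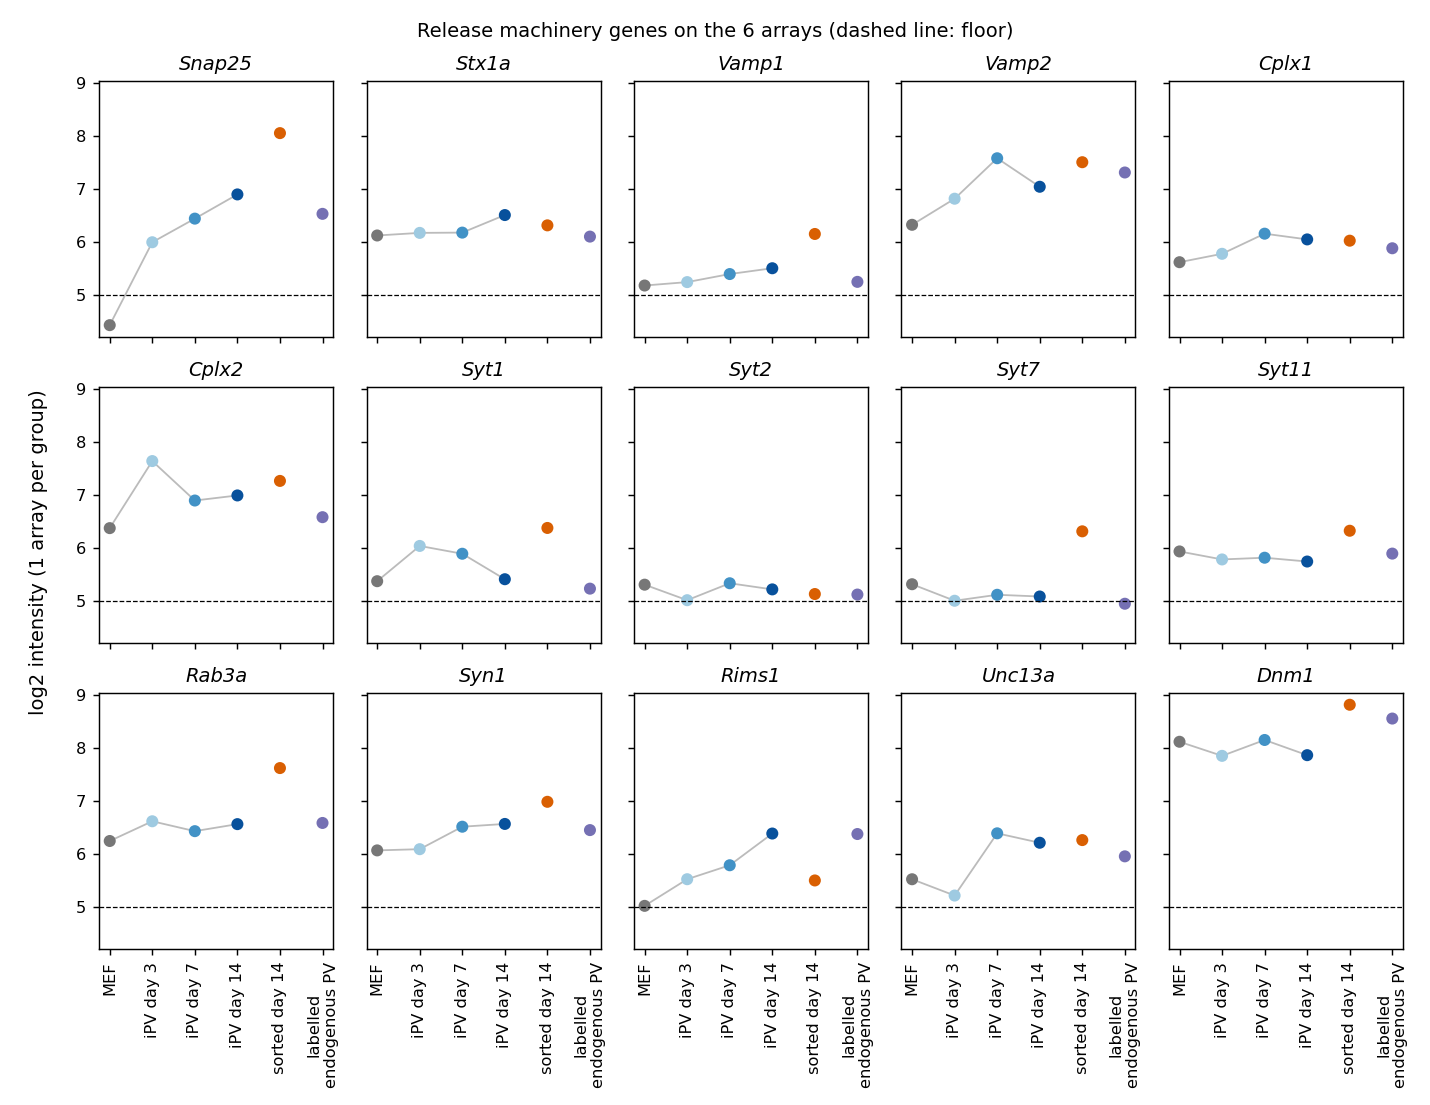
Log2 intensity (y axis) of 15 release machinery genes on the 6 arrays (x axis), 1 point per array, with a grey line through MEF and the unsorted days and a dashed line at the floor of 5.01. Snap25 climbs from 4.44 in MEF to 6.90 at day 14 and 8.05 in sorted cells, Rab3a and Syt7 are high in sorted cells alone, and Rims1 is highest at day 14 and on the endogenous-labelled array.

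Of the regulators that act on the assembled SNAREs, Cplx2 was highest early in induction. Complexins clamp and then promote fusion. Cplx2 (probe set 17287432) read 6.38 in MEF, then 7.64, 6.90 and 6.99 at 3, 7 and 14 dpi, 7.27 after sorting and 6.59 on the endogenous-labelled array. The day 3 array was highest, 2.40-fold above MEF, a difference of 1.26 that 146 of 11874 genes reached. The other differences from MEF were under 2-fold, with 1.85-fold in sorted cells, and on the endogenous-labelled array the difference of 0.21 turned negative after housekeeping centring. Cplx1, the complexin that prevails in parvalbumin interneurons, read 5.62 in MEF, then 5.78, 6.16 and 6.05 at 3, 7 and 14 dpi, 6.03 after sorting and 5.89 on the endogenous-labelled array. All of these lay above MEF by 0.54 or less, and after housekeeping centring the day 3 value was 0.021 below it. Doc2b, a soluble calcium-binding protein of asynchronous and spontaneous release, read 5.07 in MEF, then 5.77, 5.50 and 5.16 at 3, 7 and 14 dpi, 6.07 after sorting and 5.11 on the endogenous-labelled array. MEF, day 14 and the endogenous-labelled array were near the floor, and sorted cells were highest.

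Of the 8 synaptotagmins, Syt1 and Syt7 were highest in sorted cells, Syt2 stayed near the floor on all arrays, and Syt4 and Syt5 were under it. Syt1 (probe set 17244843), the sensor of fast release in most forebrain neurons, read 5.38 in MEF, then 6.04, 5.90 and 5.42 at 3, 7 and 14 dpi, 6.38 after sorting and 5.24 on the endogenous-labelled array. Among unsorted cells the early days were higher, and day 14, MEF and the endogenous-labelled array lay within 0.18 of one another. Sorted cells were just past 2-fold above MEF, a difference of 1.003 that 686 of 11760 genes reached. Quantile normalization gave 0.95 and housekeeping centring 0.75, so that call does not hold under either. They were 2.21-fold above the endogenous-labelled array.

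Syt7 (probe set 17357486), a high-affinity sensor of asynchronous release that also acts in lysosome and granule exocytosis, read 5.32 in MEF, then 5.01, 5.12 and 5.09 at 3, 7 and 14 dpi, 6.32 after sorting and 4.96 on the endogenous-labelled array. Only the sorted array lay over 0.31 above the floor. It was 2.34-fold above unsorted day 14 cells, a difference of 1.23 that 131 of 11810 genes reached, and at least 2.47-fold above the endogenous-labelled array, but 1.99-fold above MEF. Syt2, the fast sensor of parvalbumin terminals, read 5.31 in MEF, then 5.02, 5.34 and 5.23 at 3, 7 and 14 dpi, 5.14 after sorting and 5.13 on the endogenous-labelled array. Its values spanned 0.32, neither sorted cells nor the endogenous-labelled array lay above MEF, and no array lay clear of the floor.

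Syt11, a synaptotagmin that does not bind calcium, read 5.94 in MEF, then 5.79, 5.82 and 5.75 at 3, 7 and 14 dpi, 6.33 after sorting and 5.90 on the endogenous-labelled array. The sorted array was highest and the other 5 lay within 0.19 of one another. Syt6 lay between 5.003 and 5.33 and Syt9 between 4.88 and 5.56, the latter highest at day 3. Syt4, a calcium-insensitive form of dense-core vesicles, lay between 4.14 and 4.64, and Syt5 between 3.76 and 4.20.

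Of the Rab3 GTPases, which tether vesicles to the active zone, Rab3a was high in sorted cells and Rab3c highest in unsorted day 14 cells. Rab3a (probe set 17502039), the main Rab3 of synaptic vesicles, read 6.25 in MEF, then 6.62, 6.44 and 6.57 at 3, 7 and 14 dpi, 7.62 after sorting and 6.59 on the endogenous-labelled array. The 5 other arrays lay within 0.37 of one another, and the sorted array stood 1.002 above the highest of them. Sorted cells were 2.59-fold above MEF, 2.08-fold above unsorted day 14 cells and 2.05-fold above the endogenous-labelled array. The difference of 1.37 from MEF was reached by 296 of 11760 genes. Its promoter stretch printed above holds the E-box, as does that of Syt1, whereas Rims1 and Unc13a, which also spanned 2-fold, had no CAGCTG in the searched window. The E-box was also in Rab3c, which was lower in sorted than in unsorted day 14 cells, and in Stx1a, which varied little. It was in Amph and Unc13c too, which lay under the floor on every array. Whether the motif goes with expression was not tested. Rab3c read 5.66 in MEF, then 5.61, 6.03 and 6.35 at 3, 7 and 14 dpi, 5.74 after sorting and 5.97 on the endogenous-labelled array. Here sorted cells were 0.61 below unsorted cells of the same day. The second Rab3c probe set, between 4.77 and 5.33, was highest in MEF and did not follow this order. Rab3b lay between 4.26 and 4.82, under the floor throughout.

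Among the 9 synapsin and vesicle membrane genes, Syn1 was the one with a graded pattern, and 0 were called on any array. Synapsins tether vesicles to one another and to actin. Syn1 (probe set 17540501) read 6.07 in MEF, then 6.10, 6.52 and 6.57 at 3, 7 and 14 dpi, 6.99 after sorting and 6.46 on the endogenous-labelled array. MEF and day 3 were alike at the bottom, day 7, day 14 and the endogenous-labelled array were within 0.12 of one another, and sorted cells were highest at 1.89-fold above MEF. Syp, synaptophysin, an abundant vesicle protein, lay between 5.03 at day 3 and 5.56 on the endogenous-labelled array, and its second probe set was under the floor on every array, at most 4.31. Syngr3 lay between 5.34 and 5.50 and Syngr1, another synaptogyrin, between 4.69 and 5.11. The highest value of Syn2 was 5.27, of Syn3 5.19, of Sv2a 5.22 and of Sv2b 5.27, each near the floor, and Sv2c, a vesicle glycoprotein, had at most 4.69. Sv2b was above the floor in sorted cells alone, and without a floor its difference from MEF there was 1.002, just past 2-fold. The median difference of the 5 measured genes of this role in sorted cells, 0.25, turned to -0.0093 after housekeeping centring.

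Active zone scaffolds divided into Rims1 and Unc13a, which varied over 2-fold, Bsn, which varied little, and 4 genes under the floor on all arrays. Rims1 (probe set 17221709), a scaffold that links Rab3, Munc13 and calcium channels, read 5.03 in MEF, then 5.53, 5.79 and 6.39 at 3, 7 and 14 dpi, 5.51 after sorting and 6.38 on the endogenous-labelled array. It was higher at each later day of unsorted cells, and day 14 and the endogenous-labelled array were equal within 0.01. Both were called, 2.57-fold and 2.55-fold above MEF, differences of 1.36 and 1.35 that 158 of 11806 and 179 of 11888 genes reached. Unlike Snap25, Rab3a and Syt7, Rims1 was lower in sorted than in unsorted day 14 cells, by a difference of -0.88. The difference from the endogenous-labelled array was -0.87, and neither reached 2-fold.

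Unc13a (probe set 17510368), which encodes the priming factor Munc13-1, read 5.53 in MEF, then 5.22, 6.40 and 6.22 at 3, 7 and 14 dpi, 6.27 after sorting and 5.96 on the endogenous-labelled array. Day 3 was lowest, and day 7, day 14 and sorted cells lay within 0.18 of one another. The step from day 3 to day 7 was 1.17, while the largest difference from MEF was 0.86 at day 7, under 2-fold. Bsn, bassoon, ranged from a low of 5.24 in sorted cells to 5.57 at day 7, and its second probe set between 4.77 and 5.22. Pclo, piccolo, its large partner, had at most 4.44, Rims2 at most 4.24, Erc2 at most 3.93 and Unc13c at most 4.99.

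Vesicle retrieval was represented by Dnm1 and Amph. Dnm1 (probe set 17383858), the neuronal dynamin that cuts endocytic vesicles from the membrane, read 8.12 in MEF, then 7.85, 8.15 and 7.87 at 3, 7 and 14 dpi, 8.82 after sorting and 8.56 on the endogenous-labelled array. MEF itself was well above the floor, and sorted cells were 1.93-fold above unsorted day 14 cells but 1.62-fold above MEF. Amph, amphiphysin, lay between 3.65 and 4.75, under the floor on every array.

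The other genes of the release pathway, a list of 82 of which 78 were analysed, lay nearer the median of all genes in sorted cells. Of 68 measured there, 7 were called higher than MEF and 0 lower, beside the 6.04% and 2.7% of all genes given above, with a median of 0.10 that turned to -0.11 after housekeeping centring. That centring left 3 higher and 1 lower. On the other arrays 1 of 66 was higher and 1 lower at day 3, where all genes had 2.37% and 2.7%. At day 7 it was 0 of 68 higher and 2 lower, beside 2.79% and 1.39%. At day 14 it was 3 of 69 higher and 0 lower, beside 3.47% and 2.08%, and on the endogenous-labelled array 1 of 67 higher and 0 lower, beside 3.53% and 1.61%. The 9 widely expressed SNAREs on the list, such as Snap23, Vamp3 and Stx4a, had 0 members called in sorted cells and a median of 0.031. The 4 SNAREs described above, Snap25, Stx1a, Vamp1 and Vamp2, had 2 called and a median of 1.07, or 0.82 after housekeeping centring. Of these 4, only Snap25 lay under the floor in MEF.

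Snap91, which encodes the neuronal clathrin adaptor AP180, was highest in sorted cells and under the floor in MEF alone, as Snap25 was, but was lower at day 7 than at day 3. It read 4.87 in MEF, then 5.75, 5.47 and 6.19 at 3, 7 and 14 dpi, 7.24 after sorting and 5.78 on the endogenous-labelled array. Sorted cells were at least 4.69-fold above MEF and 2.08-fold above unsorted day 14 cells. The remaining genes called higher in sorted cells were Napb, the brain form of the SNAP adaptor of SNARE disassembly, by 1.22, Syt17 by 1.22, Sytl2, a Rab27 effector, by 1.49, Scamp5, a vesicle membrane protein, by 1.26, Sh3gl3, an endophilin, by 1.18, and Cltb, a clathrin light chain, by 1.01. Sytl2 was also 3.41-fold above MEF at day 3 and 2.55-fold at day 14, but 1.12-fold at day 7, so its unsorted values did not follow the order of the days. Scamp5 alone was called on the endogenous-labelled array, 2.11-fold above MEF. Lower than MEF were Synj2, a synaptojanin, at least 2.02-fold at days 3 and 7, and Rab3ip, an exchange factor, 2.11-fold at day 7.

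**Figure D4:**
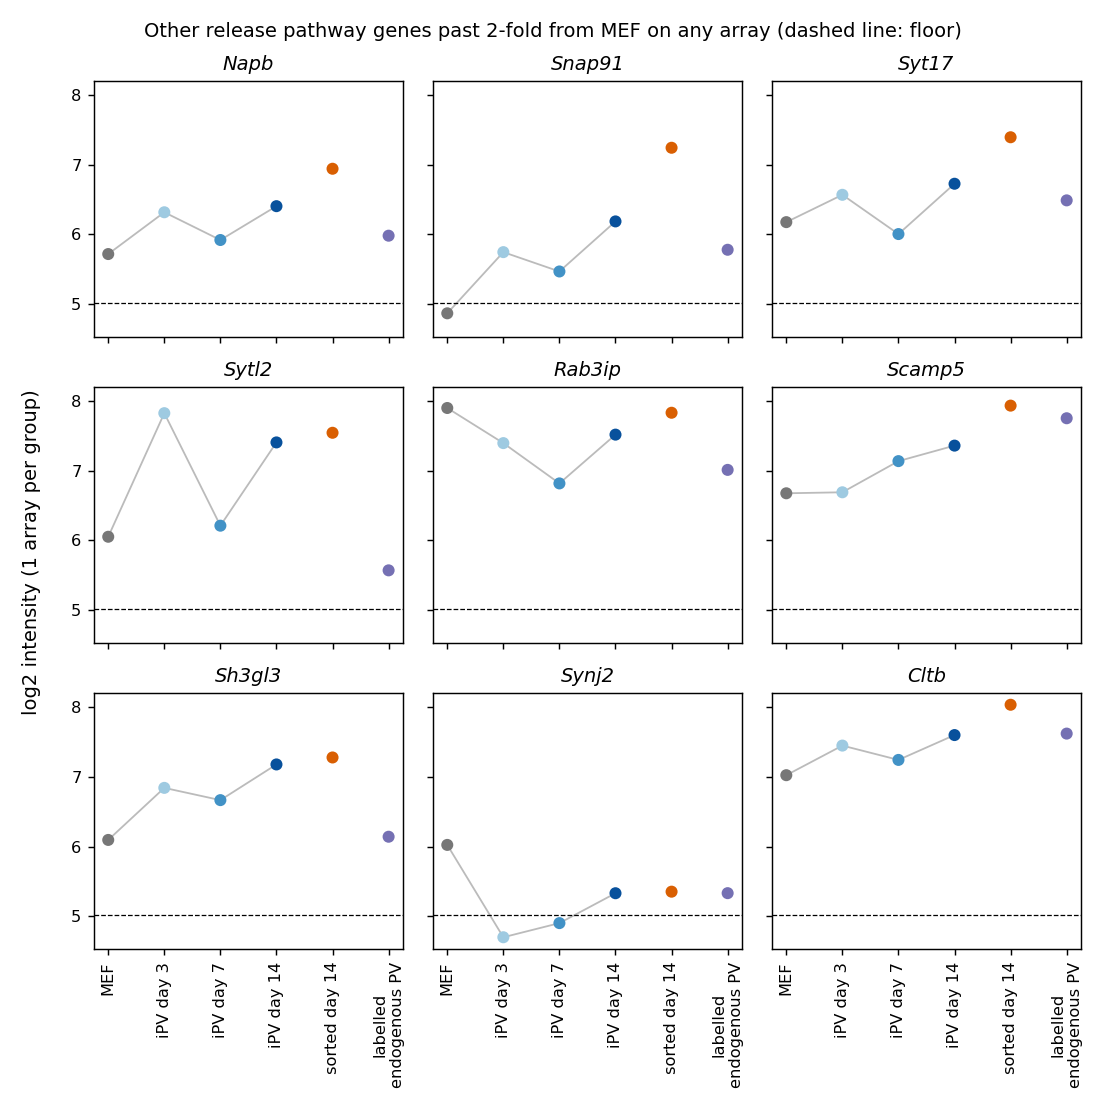
Log2 intensity (y axis) on the 6 arrays (x axis) of the 9 other release pathway genes that differed at least 2-fold from MEF on any array, 1 point per array, with a grey line through MEF and the unsorted days and a dashed line at the floor of 5.01. Snap91 reaches 7.24 in sorted cells from 4.87 in MEF, and Synj2 is highest in MEF.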

How the data were processed

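Total RNA of 6 samples (6 µg each) was made into biotinylated cRNA for 1 Affymetrix array per sample, as the labels' protocols describe. The table deposited by the authors holds log2 values of 41345 probe sets. Per the submitters' processing notes the software was Affymetrix Expression Console. How probe sets were summarised and normalized, and its version, were not given in the sources used here. Their size and range show that the values are log2. Probe sets numbered below the first annotated one (5333) were left out as controls. Of the rest, 23521 had 1 gene symbol in the platform annotation, 1814 several and 10677 none here. All 36 members matched their symbol in RefSeq through the Entrez identifier, and 32 had a single probe set. Some genes of the pathway and marker lists are not analysed here.

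The 7 comparisons gave differences of floored log2 values (floor 5.01), computed with Python 3.11.15, pandas 2.3.3 and numpy 2.4.6. Counting was tested on simulated data. Single arrays allow no test, and their number limits the precision. Technical spread came from the 2 brightest probe sets of each of 327 to 403 genes. Members given on all 6 arrays were those spanning 2-fold, the member with the highest mean in each role, and Snap25, Stx1a, Vamp1, Vamp2, Syt1, Syt2 and Cplx1. Doc2b, Rab3c and others were added after their values were seen. Of the other pathway genes, those 2-fold from MEF on any array were named. The members and lists were chosen with earlier results of these data known. The 6 alternatives were quantile normalization, housekeeping centring, no floor, a floor at percentile 75, the mean of all probe sets of a gene, and a 1.5-fold threshold.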

Additional observations from a re-analysis of the deposited data

How the results depend on the processing

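Directions of the 18 called differences of named genes were the same under every alternative that measured them. Little else was possible under most of these settings. A change of floor cannot turn a sign. Housekeeping centring moved the median of all genes against MEF by -0.17 to -0.24, while a call needed a difference of 1. At 2-fold, 15 of 18 stayed called after quantile normalization, 15 of 18 after housekeeping centring and 7 of the 10 still measured with a floor at percentile 75. All 18 stayed called without a floor and with the mean of all probe sets, but neither setting could have undone a call. Leaving out the floor can only keep or widen a difference, and each of the genes called has 1 probe set. The number of members called higher than MEF at day 3 was 2 after quantile normalization, after housekeeping centring and with no floor, where Snap25 passed, against 1 as reported. Over all genes these settings called 318 of 13271, 227 of 14092 and 393 of 13439 higher at day 3. After housekeeping centring the number of members was 1 at day 7 and 2 in sorted cells, beside 226 of 13943 and 484 of 14034 genes. In sorted cells it was 3 after quantile normalization, beside 636 of 13398 genes. With no floor it was 5 there, where Sv2b passed, beside 923 of 13466 genes. With a floor at percentile 75, where 3 to 6 members were measured in each comparison, it was 0 at day 7, 0 at day 14 and 2 in sorted cells, and 0 on the endogenous-labelled array, and 2 for sorted cells against the endogenous-labelled array. Over all genes that floor left 225 of 6920 higher at day 7, 271 of 7133 at day 14 and 438 of 7385 in sorted cells. It left 274 of 7048 on the endogenous-labelled array, and 139 of 7317 for sorted cells against that array. At a 1.5-fold threshold the members higher were 4 at day 3, 4 at day 7, 6 at day 14 and 11 in sorted cells, 7 for sorted against unsorted day 14 cells and 7 for sorted cells against the endogenous-labelled array, with 2 and 1 lower in these last comparisons. The shares of all genes at 1.5-fold are given above beside each comparison. Housekeeping centring turned the list median negative at day 3 (-0.13), at day 7 (-0.044) and on the endogenous-labelled array (-0.046). The cause was not tested. No paired analysis was possible because each group has 1 array. Signal near the floor limits what can be said of Syt2, Syn2, Syn3, Syngr1, Sv2a and Sv2b, and of the 9 genes under it.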
